A study of Homo sapiens with 8 samples.

Results

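Proteins that enter the secretory pathway move between the endoplasmic reticulum (ER) and the Golgi in coated vesicles, and 50 genes of this machinery were taken by name. They cover the subunits of the COPI and COPII coats with the GTPases that recruit them, the cargo receptors that cycle between the ER and the Golgi, Golgi tethering proteins, and the SNAREs that fuse vesicles with their target. A member was measured where the array annotation gave a probe set that gene symbol alone, which held for 47 of the 50 members among 19775 genes with such a probe set. Of these, 46 were bright enough to be tested, 22 on the cytosolic side (coat subunits, GTPases and their activators) and 24 on the side of cargo receptors, Golgi proteins and SNAREs. ARF1, a GTPase that recruits COPI, had 1 probe set of its own, which was too dim to be tested. TMED7, a p24 cargo receptor, was covered only by probe sets with several gene symbols, and KDELR2 and USO1 were not named here.

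RNA was measured on 8 Affymetrix U133 Plus 2.0 arrays, 4 from large and 4 from small cells, in a comparison of 2 size classes of a single culture type. The cells of every array belonged to H1, a widely used human embryonic stem cell line, cultured over irradiated mouse embryonic fibroblasts (MEFs) on gelatin-coated plates, with no genetic change or drug in the labels. Sorting by light scatter (forward and side) on a cytometer gave the size classes, and the 4 arrays of a class came from separate sorts. H1 is 1 cell line, and the scatter gates are not given in the sources used here. Equal amounts of RNA were labelled for each array, so a value is a level relative to the RNA measured and not an amount per cell. In such bulk samples, fewer cells of a type and less RNA per cell cannot be told apart.

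COPII forms at ER exit sites. PREB activates the GTPase SAR1, which recruits the inner coat of SEC23 and SEC24, and SEC13 and SEC31 then form the outer cage. COPI, or coatomer, is recruited to Golgi membranes by ARF GTPases that GBF1 activates, and it returns escaped ER proteins and the receptors themselves. Cargo receptors bind cargo in the lumen and the coats in the cytosol, so they travel in both directions. In embryonic stem cells the same route carries adhesion proteins, growth factor receptors and basement membrane proteins to the surface.

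Promoters are shown for the 4 members whose levels differed between the classes and for COPB1 and KDELR3, which hold a motif that none of those 4 hold. All are the 250 bases before the annotated start, from RefSeq on GRCh38.p14, 5′ to 3′ on the strand of the gene, with capitals marking CCACG or TGACGTG on either strand. LMAN1 lies at chr18:59359266-59359515, SURF4 at chr9:133376061-133376310, GOLGB1 at chr3:121749742-121749991, GOLIM4 at chr3:168095925-168096174 and COPB1 at chr11:14499812-14500061, all on the minus strand. KDELR3 lies at chr22:38467846-38468095 on the plus strand.
LMAN1: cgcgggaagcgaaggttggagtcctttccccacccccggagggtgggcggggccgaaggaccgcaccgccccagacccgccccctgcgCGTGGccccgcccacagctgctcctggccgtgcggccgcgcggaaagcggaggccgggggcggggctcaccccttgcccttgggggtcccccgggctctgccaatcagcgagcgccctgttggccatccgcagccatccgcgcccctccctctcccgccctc
SURF4: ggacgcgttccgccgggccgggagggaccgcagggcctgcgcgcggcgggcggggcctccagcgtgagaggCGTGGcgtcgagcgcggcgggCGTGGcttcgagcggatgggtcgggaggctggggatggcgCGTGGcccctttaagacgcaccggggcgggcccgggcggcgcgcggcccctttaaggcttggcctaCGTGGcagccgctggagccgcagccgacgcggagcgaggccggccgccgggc
GOLGB1: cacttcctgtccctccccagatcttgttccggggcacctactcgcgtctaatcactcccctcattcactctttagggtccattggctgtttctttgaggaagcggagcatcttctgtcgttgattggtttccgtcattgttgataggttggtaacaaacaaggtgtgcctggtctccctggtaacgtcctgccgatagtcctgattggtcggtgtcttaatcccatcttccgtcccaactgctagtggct
GOLIM4: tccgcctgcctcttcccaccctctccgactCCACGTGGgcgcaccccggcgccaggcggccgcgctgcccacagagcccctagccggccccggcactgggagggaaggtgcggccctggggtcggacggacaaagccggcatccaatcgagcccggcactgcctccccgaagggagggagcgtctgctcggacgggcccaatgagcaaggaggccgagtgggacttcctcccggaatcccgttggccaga
COPB1: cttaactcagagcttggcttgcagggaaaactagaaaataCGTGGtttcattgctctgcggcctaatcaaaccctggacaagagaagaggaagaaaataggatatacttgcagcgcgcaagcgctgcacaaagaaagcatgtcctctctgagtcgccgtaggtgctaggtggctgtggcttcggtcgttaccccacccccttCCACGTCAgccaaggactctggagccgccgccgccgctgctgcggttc
KDELR3: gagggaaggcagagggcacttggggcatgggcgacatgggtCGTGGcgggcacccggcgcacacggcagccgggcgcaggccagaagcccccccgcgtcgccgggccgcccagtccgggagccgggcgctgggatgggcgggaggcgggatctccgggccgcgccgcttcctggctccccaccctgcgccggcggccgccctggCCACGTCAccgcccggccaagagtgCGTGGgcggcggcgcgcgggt

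CCACG and TGACGTG are among the letters known as sites of unfolded protein response factors, which activate many secretory genes when the ER is under load. The search covered 250 bases before to 50 bases after each start, on both strands, for the 43 members with a promoter in the table, and the motifs can overlap where CCACGTCA is read. TGACGTG stood in 13 of the 43 member promoters (30.2%), against 276 of 11776 promoters of genes tested on the arrays (2.34%) and 692 of all 35116 promoters (1.97%). On the cytosolic side 10 of 21 promoters held it (47.6%): COPA, COPB1, COPB2, COPE, SEC13, SEC23A, SEC24A, SEC16A, ARF1 and GBF1. Among cargo receptors, Golgi proteins and SNAREs 3 of 22 held it (13.6%): KDELR3, GOLPH3 and STX5. None of the 4 members that passed the test held it in this window. CCACG, a shorter and more common word, stood in 36 of the 43 member promoters (83.7%), against 47.8% of tested genes and 38.1% of all promoters, and in 3 of the 4 promoters of members that passed, GOLGB1 being without it. CCAAT and CCACG set 9 bases apart were in none of the 43, against 0.127% of tested genes, and the cAMP response element was in the GOLPH3 promoter alone, against 3.01% of tested genes. These matches are letters in a window, and no test was made of them.

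Markers of pluripotent cells placed both classes with the label. Of 10 such markers 9 had a probe set of their own, at the 96.9 to 99.7 percentile of all probe sets, and 1 of the 9 passed the test, PODXL, a surface sialomucin, which was lower in small cells. Of the lists for other cell types, 6 of 6 fibroblast, 5 of 5 neural, 2 of 4 endoderm and 1 of 4 trophoblast markers were tested and none passed. Fibroblast markers ranged widely, from the 57.7 percentile (POSTN) to the 96.6 percentile (COL1A1). Their summed intensity was 1001 to 2204 in large and 807 to 1716 in small arrays. The feeder cells were mouse cells and the probe sets are human, so the fibroblast list does not test for feeder RNA. Neural markers stood at the 46.3 to 67.3 percentile. The summed neural markers ranged from 94.6 to 131 intensity units in large and from 153 to 165 in small arrays, with no overlap, and the other lists overlapped; their part in the results was not tested. The deposited brightness of the arrays (75th percentile, log2) ran from 5.45 to 6.75, with an exact two-sided permutation p of 0.714 between classes. The 3 prime minus 5 prime difference of GAPDH and ACTB grows as RNA is degraded. It was 2.12 ± 0.53 (SD, n = 4) in large and 2.36 ± 0.30 (SD, n = 4) in small arrays (exact two-sided permutation p = 0.4). Large array 1 stood apart at 2.91. The other large arrays lay between 1.83 and 1.89 and the small arrays between 1.94 and 2.66. The classes thus overlapped in this measure only through large array 1.

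Of the 46 members tested, 4 were lower in small cells and 0 were higher, by limma with an adjusted p under 0.05 over all 14726 genes. Over all genes 1.51% were called lower and 0.224% higher, against 8.7% and 0 of the members. The 4 were the cargo receptors LMAN1 and SURF4 and the Golgi proteins GOLGB1 and GOLIM4. All 4 stood among the 24 cargo receptors, Golgi proteins and SNAREs (16.7% called lower), while none of the 22 cytosolic genes was called. At an unadjusted p under 0.05, 9 of these 24 were lower and 1 higher, and of the 22 cytosolic genes 0 were lower and 0 higher, against 7.9% lower and 8.33% higher over all genes. The values of small and large arrays did not overlap, with small lower, for 5 of the 24 (20.8%) and for 0 of the 22, against 5.07% of all genes. With small higher they did not overlap for 1 of the 24, GOSR1, against 4.94% of all genes.

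The median log2 difference (small minus large) was -0.20 over the 24 cargo receptors, Golgi proteins and SNAREs and 0.04 over the 22 cytosolic genes, beside 0.05 over all genes. Of the 24, 16 differences were below 0 and 8 above, and of the 22, 8 were below and 14 above, beside 44% of all genes below 0. The difference between the 2 sides was not itself tested. For 15 of the 22 cytosolic genes the 95% interval in the reported fit stayed above -0.5, as it did for 11 of the 24 and for 7602 of all 14726 genes. It lay between -0.5 and 0.5 for 9 of the 22, 4 of the 24 and 2055 of all genes. Median standard errors were 0.175 and 0.179 on the 2 sides, so these counts follow the estimates as well as the precision. The lowest bound of any cytosolic gene was -0.74, that of SEC24C.

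**Figure D1:**
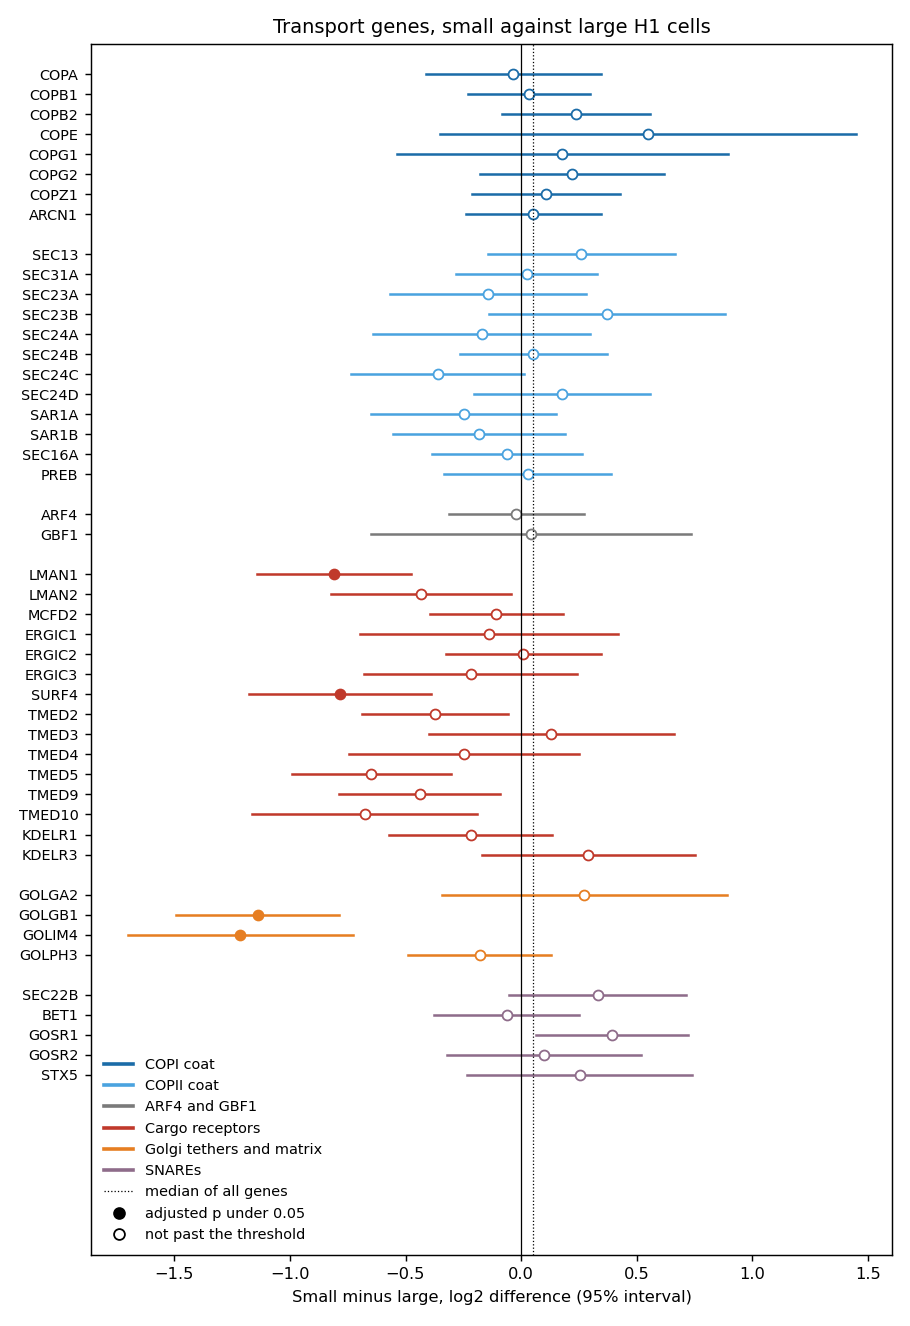
Log2 difference (small minus large) of each of the 46 tested members on the horizontal axis, with its 95% interval, grouped by class; filled points passed an adjusted p of 0.05, and the dotted line is the median of all genes, 0.05. The 4 filled points, LMAN1, SURF4, GOLGB1 and GOLIM4, lie between -0.78 and -1.21, and the coat subunits lie between -0.36 and 0.55.

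Seen array by array, the centred values of the 15 cargo receptors had a median of 0.09, 0.25, 0.29 and 0.16 in large arrays 1 to 4 and of -0.19, -0.15, -0.12 and -0.17 in small arrays 1 to 4. The 4 Golgi proteins gave medians of 0.34, 0.26, 0.43 and 0.39 in large and -0.17, -0.42, -0.39 and -0.17 in small arrays. Each small array thus lay below each large array for these classes, and 2 of the 4 Golgi proteins were the called GOLGB1 and GOLIM4. Medians over all 14726 genes did not overlap either, in the other direction and by less. They were -0.008, -0.011, 0.020 and 0.025 in large and 0.038, 0.030, 0.054 and 0.040 in small arrays. The 12 COPII genes gave -0.02, -0.06, -0.11 and 0.15 in large and 0.08, -0.08, -0.09 and -0.01 in small arrays, and there the classes overlapped.

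**Figure D2:**
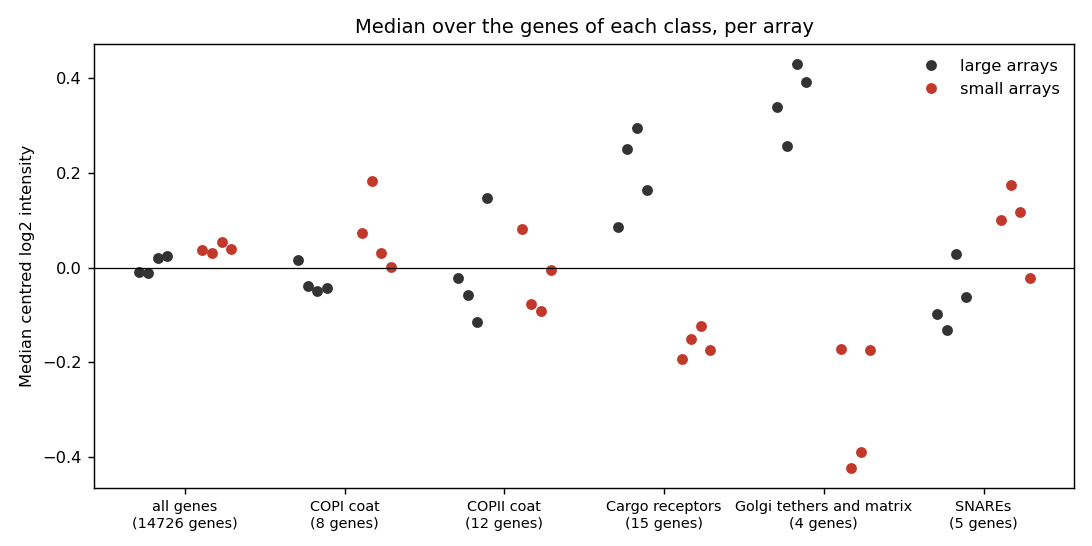
Median over the genes of each class, after each gene was centred on its mean over the 8 arrays (vertical axis, log2 intensity), for the 4 large and the 4 small arrays, beside all 14726 genes. The cargo receptor medians run from 0.09 to 0.29 in large and from -0.19 to -0.12 in small arrays, and the COPII medians of large and small arrays overlap. The medians over all genes do not overlap, with small arrays slightly higher.

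The 8 COPI coat genes had a median log2 difference of 0.14, with 7 above 0, and none passed the test. COPB2, the beta prime subunit, which reads the retrieval signals of cargo, had log2 intensities of 8.92, 8.55, 8.59 and 8.60 in large and 9.08, 8.93, 8.94 and 8.66 in small arrays. Large array 1 was as high as the small arrays, so the groups overlapped. Its difference was 0.24 ± 0.15 (SE; limma adjusted p = 0.466). COPE, the epsilon subunit, had 5.42, 7.76, 6.94 and 6.56 in large and 6.61, 7.18, 6.99 and 8.08 in small arrays. The spread within large cells was wider than the distance between groups, and its difference of 0.55 ± 0.42 had an adjusted p of 0.566 by limma. That value turned on single arrays: it was 0.13 without large array 1, 0.26 without small array 4 and 0.92 without large array 2, and 0.07 with the mean of its probe sets. The other 6 subunits lay between -0.03 (COPA, alpha) and 0.22 (COPG2, gamma). Among them ARCN1, the delta subunit, had a difference of 0.05 ± 0.14 and COPB1, the beta subunit, of 0.03 ± 0.12, so a change of the size seen in LMAN1 lay outside the 95% intervals of both (-0.24 to 0.35 and -0.23 to 0.30).

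The 12 COPII genes were split evenly about 0, with 6 below and 6 above and a median of -0.02. SEC24C, one of the SEC24 paralogs that select cargo for the vesicle, had 7.71, 7.66, 8.22 and 7.96 in large and 7.37, 7.66, 7.63 and 7.44 in small arrays. Small arrays 1, 3 and 4 were below every large array, and small array 2 was level with large array 2. The difference was -0.36 ± 0.17 (SE; limma adjusted p = 0.327), the lowest of the class. SEC23B, which stimulates GTP hydrolysis by SAR1 and pairs with SEC24, had 9.10, 7.98, 8.40 and 8.57 in large and 9.42, 8.86, 8.58 and 8.67 in small arrays. These overlapped, with a difference of 0.37 ± 0.24 (SE; limma adjusted p = 0.476), the highest of the class, and its other probe sets stood at -0.10 and 0.30. It was 0.19 without large array 2 or small array 1 and 0.57 without large array 1. Paralogs thus stood on both sides of 0: SEC23A at -0.14, SEC24A at -0.17, SEC24B at 0.05 and SEC24D at 0.18. The cage subunits SEC13 and SEC31A were at 0.26 ± 0.19 and 0.02 ± 0.14. SAR1A and SAR1B were at -0.25 ± 0.19 and -0.18 ± 0.17, SEC16A, a scaffold of exit sites, at -0.06 ± 0.15, and PREB, the activator of SAR1 and itself an ER membrane protein, at 0.03 ± 0.17.

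ARF4, a GTPase of the ARF family, had 10.59, 10.98, 11.14 and 11.02 in large and 10.77, 10.89, 11.13 and 10.87 in small arrays. The groups overlapped almost fully, and the difference was -0.02 ± 0.14 (SE; limma adjusted p = 0.961), with a sign that turned under other scalings. GBF1, the exchange factor that activates ARF proteins at the Golgi, had 5.93, 4.76, 5.48 and 4.78 in large and 5.14, 5.79, 5.46 and 4.72 in small arrays. Its difference of 0.04 ± 0.32 (SE; limma adjusted p = 0.966) also turned sign under other settings. The dim ARF1 probe set had a log2 intensity of 4.25 ± 0.92 (SD, n = 4) in large and 2.90 ± 0.57 (SD, n = 4) in small arrays, and the groups overlapped.

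Of the 15 cargo receptors tested, 2 fell, 12 of the 15 differences were below 0, and the median was -0.25. Over all genes 1.51% were called lower, 44% were below 0 and the median was 0.05. LMAN1 (ERGIC-53), the mannose-binding lectin that carries glycoproteins such as coagulation factors out of the ER, had 10.25, 10.48, 10.83 and 10.72 in large and 9.66, 9.52, 10.02 and 9.85 in small arrays. Every small array lay below every large one. Its level fell by 0.81 ± 0.15 on the log2 scale, which is 1.75-fold lower (limma adjusted p = 0.0225), and a second, dim probe set stood at -1.34 ± 0.48. MCFD2, the soluble lumenal partner of LMAN1, had a difference of -0.11 ± 0.13 (limma adjusted p = 0.748), with large at 8.84 ± 0.12 and small at 8.74 ± 0.08 (SD, n = 4). A second, dimmer MCFD2 probe set stood on the other side of 0, at 0.25 ± 0.26, and the ratio given next uses the brighter one. The log2 ratio of LMAN1 to MCFD2 within an array shifted by -0.70 between small and large cells, and it did not overlap between groups. That pair was chosen after its values were seen, so the shift is a description.

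SURF4, a receptor for soluble cargo such as lipoproteins that leaves the ER in COPII vesicles, had 9.29, 9.83, 9.27 and 9.70 in large and 8.69, 8.34, 9.02 and 8.91 in small arrays. All small arrays were below all large arrays. It fell by 0.78 ± 0.18 on the log2 scale, 1.72-fold lower, with an adjusted p of 0.0491 by limma, close to the threshold. Adjusted over probe sets rather than genes, the same probe set had a limma p of 0.054, and its other probe sets stood at -0.53 ± 0.19 and -0.58 ± 0.19.

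The p24 proteins (TMED) are abundant cargo receptors of COPI and COPII vesicles and carry GPI-anchored proteins, among others. Of the 6 tested, 0 passed the gene-level test, 5 were below 0, and 4 were lower at an unadjusted p under 0.05. Among all genes 44% were below 0 and 7.9% were lower at that unadjusted p. TMED5 had 9.0, 9.32, 9.30 and 9.28 in large and 8.57, 8.75, 8.21 and 8.78 in small arrays. Its groups did not overlap, and its difference was -0.65 ± 0.16 (SE; limma adjusted p = 0.0603). Its dimmer probe sets stood at -0.47, -0.22 and 0.00, and with the mean of its probe sets the difference was -0.33 (limma adjusted p = 0.486). TMED10, the p24 delta protein, had 9.57, 10.11, 10.65 and 10.59 in large and 9.38, 9.24, 9.96 and 9.63 in small arrays. Large array 1 lay within the small arrays, and the difference of -0.68 ± 0.23 had an adjusted p of 0.155 by limma.

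The second TMED10 probe set gave a tighter contrast, with 8.21, 8.39, 7.70 and 7.97 in large and 7.20, 7.23, 7.0 and 7.18 in small arrays. There the groups were apart, and the difference of -0.91 ± 0.18 passed over all probe sets (limma adjusted p = 0.0286). TMED9 was at -0.44 ± 0.16 (limma adjusted p = 0.197), with a second probe set at -0.74, and TMED2 was at -0.37 ± 0.15 (limma adjusted p = 0.226), with others at -0.60 and -0.66. TMED4 stood at -0.25 ± 0.23 and TMED3 at 0.13 ± 0.25, neither near the threshold.

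None of the remaining cargo receptors passed. LMAN2, a second L-type lectin, was at -0.43 ± 0.18 (limma adjusted p = 0.251), one of the 7 cargo receptors with an unadjusted p under 0.05. Those 7 are 46.7% of the cargo receptors tested, against 7.9% of all genes lower at that unadjusted p. ERGIC1, ERGIC2 and ERGIC3, membrane proteins of the intermediate compartment, were at -0.14, 0.01 and -0.22. The KDEL receptors return ER chaperones from the Golgi: KDELR1 was at -0.22 ± 0.16 (limma adjusted p = 0.558) and KDELR3 at 0.29 ± 0.21 (limma adjusted p = 0.55), and neither passed.

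**Figure D3:**
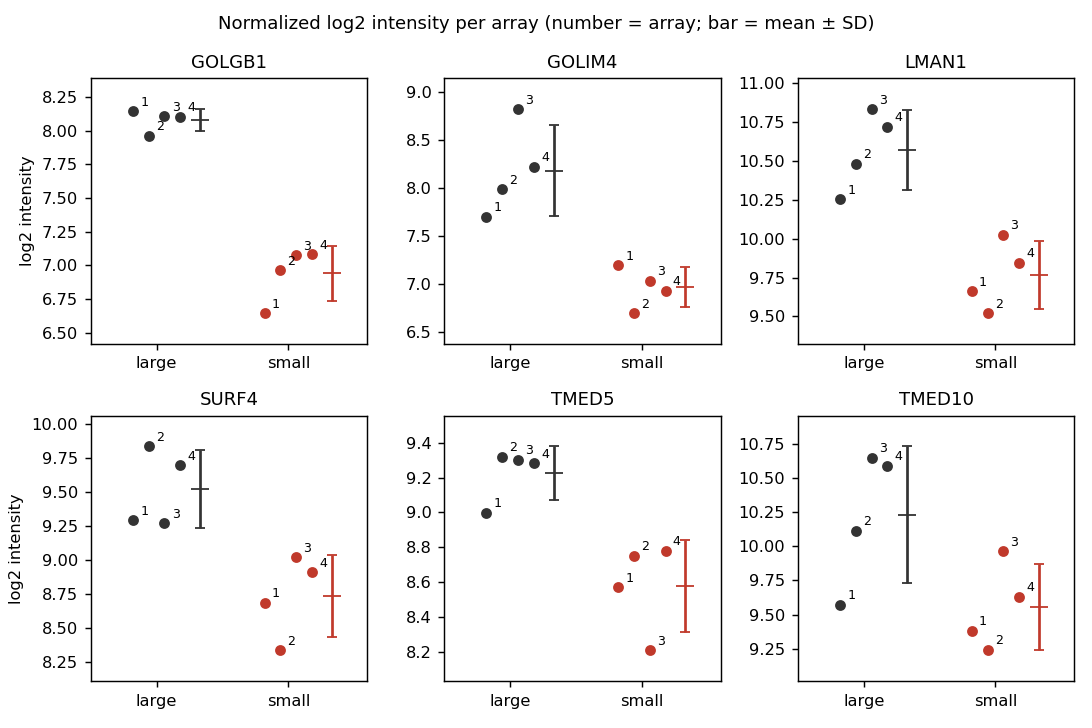
Normalized log2 intensity (vertical axis) of the 4 called members and of the 2 uncalled cargo receptors with the smallest p, TMED5 and TMED10, with each array as a numbered point and the mean and SD of each group as a bar. The groups overlap only for TMED10, where large array 1 at 9.57 lies among the small arrays.

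Of the 4 Golgi proteins tested, 2 fell, against 1.51% of all genes called lower. GOLGB1 (giantin), a very long coiled-coil golgin anchored in the Golgi membrane that tethers COPI vesicles, had 8.14, 7.96, 8.11 and 8.10 in large and 6.65, 6.96, 7.07 and 7.08 in small arrays. The large arrays lay within a narrow band, and all small arrays were clearly under it. It fell by 1.14 ± 0.16 on the log2 scale, 2.20-fold lower, the smallest adjusted p of any member (limma, 0.00894). Its second probe set was at -0.61 ± 0.23 and did not pass over probe sets (limma adjusted p = 0.232).

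GOLIM4, a Golgi membrane protein that cycles through endosomes, had 7.70, 7.98, 8.82 and 8.22 in large and 7.20, 6.70, 7.04 and 6.93 in small arrays. The groups did not overlap, and large array 3 was the highest. It fell by 1.21 ± 0.23 on the log2 scale, 2.32-fold lower (limma adjusted p = 0.0194). Its probe sets disagreed: the call rests on the brightest, while a dimmer one stood at 0.18 ± 0.31 (limma adjusted p = 0.836 over probe sets) and another was too dim to be tested. GOLIM4 was the only member with a called probe set whose tested probe sets differed in sign.

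GOLGA2, a cis-Golgi matrix golgin, had 7.17, 6.72, 6.16 and 5.86 in large and 7.13, 6.60, 6.27 and 7.01 in small arrays, which overlapped (0.27 ± 0.29 SE; limma adjusted p = 0.697). GOLPH3, a lipid-binding protein that retains glycosyltransferases, had 9.13, 9.06, 9.40 and 9.33 in large and 9.17, 8.85, 8.97 and 9.22 in small arrays. These overlapped as well, at -0.18 ± 0.14 (SE; limma adjusted p = 0.591).

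**Figure D4:**
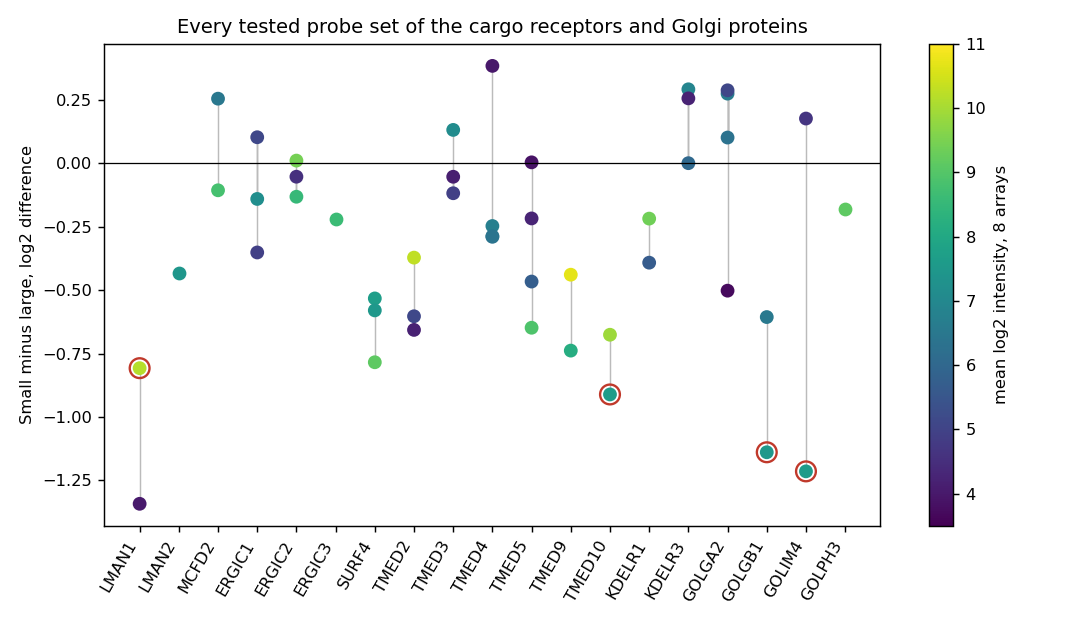
Log2 difference (small minus large, vertical axis) of every tested probe set of the cargo receptors and Golgi proteins, by gene, coloured by mean log2 intensity; rings mark adjusted p under 0.05 over all probe sets. Rings stand on 1 probe set each of LMAN1, TMED10, GOLGB1 and GOLIM4, and 1 GOLIM4 probe set lies above 0 at 0.18.

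Counted by probe set, 4 of the 63 tested on the side of cargo receptors, Golgi proteins and SNAREs were called lower, 0 higher, and 15 were lower and 4 higher at an unadjusted p under 0.05. Of the 37 cytosolic probe sets 0 were called and 0 had an unadjusted p under 0.05. Over all 32768 probe sets 1.3% were called lower and 0.198% higher, and 8.53% were lower and 6.73% higher at an unadjusted p under 0.05. Of the 38 cargo receptor probe sets 29 were below 0, beside 15603 of all 32768 probe sets. Among the 29 tested members with several tested probe sets, 19 had probe sets of both signs, beside 3554 of 6749 such genes over all genes. The 19 were 9 of 10 cytosolic genes and 10 of 19 on the other side. Many of the small differences are thus not firm in direction, among the members as among genes at large.

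The 5 SNAREs tested had a median of 0.25, and 0 passed. GOSR1, a Golgi SNARE of the early secretory pathway, had 8.51, 8.52, 8.58 and 8.59 in large and 8.76, 9.01, 9.28 and 8.73 in small arrays. All small arrays were above all large ones, but the difference of 0.39 ± 0.15 (SE) had a limma adjusted p of 0.218, and its other probe sets stood at -0.06 and 0.58. SEC22B, an ER SNARE, had 8.10, 7.60, 8.30 and 8.13 in large and 8.41, 8.18, 8.58 and 8.28 in small arrays, which overlapped, with 0.33 ± 0.18 (SE; limma adjusted p = 0.384). STX5, the syntaxin that joins these SNAREs on the Golgi, was at 0.25 ± 0.23, GOSR2 at 0.10 ± 0.19 and BET1 at -0.06 ± 0.15. All 4 member probe sets that were higher at an unadjusted p under 0.05 belonged to GOSR1 and GOSR2.

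A wider list of 72 genes of the same route (COG and TRAPP tethering complexes, RAB GTPases, other golgins, ARF regulators and further SNAREs) had 67 tested genes. Of these 2 fell and 0 rose, and the median difference was -0.05. At an unadjusted p under 0.05, 7 were lower (10.4%) and 4 higher, against 7.9% lower and 8.33% higher over all genes. Those counts are thus close to the general shares. GOLGA4, a trans-Golgi golgin, had 8.08, 7.98, 8.17 and 8.20 in large and 6.89, 6.96, 7.49 and 7.54 in small arrays. The groups were apart, and it fell by 0.89 ± 0.19 on the log2 scale (limma adjusted p = 0.0314). NBAS, a subunit of the tethering complex that receives COPI vesicles at the ER, had 7.29, 6.99, 6.69 and 6.90 in large and 5.63, 5.95, 5.87 and 6.51 in small arrays. It too did not overlap, and it fell by 0.98 ± 0.23 on the log2 scale (limma adjusted p = 0.0459). Of the list 2.99% was called lower, against 1.51% of all genes. With 1 array left out at a time GOLGA4 passed in 3 of 8 fits and NBAS in 1.

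The count of 4 called members depended on single arrays and on the scaling. Without large array 1 there were 6 called lower, TMED5 and TMED10 being added, and without small array 3 there were 5, with TMED9 added. In the fit without large array 1 the 3 prime to 5 prime difference did not overlap between the classes, and its part in the added calls was not tested. Without small array 4 it was 3, without large array 2 it was 2, and without large array 3, large array 4, small array 1 or small array 2 it was 1, GOLGB1. GOLGB1 passed in 8 of 8 such fits, GOLIM4 in 4, LMAN1 in 3 and SURF4 in 2, and their differences stayed below 0 in all 8. On the deposited scaling, with median centring or without a variance trend, limma called 0 members and 0 genes in all, though 467, 1595 and 1994 genes had an unadjusted p under 0.05. With 75th percentile scaling 2 passed, GOLGB1 and GOLIM4. SURF4, nearest the threshold, also missed it with a pseudocount of 1, with cyclic loess, with a robust fit and with the mean of probe sets (limma adjusted p from 0.0505 to 0.0537). With the 3 prime to 5 prime difference entered in the model GOLGB1 (-1.16, limma adjusted p = 0.0213) and GOLIM4 (-1.13, limma adjusted p = 0.0466) passed, while LMAN1 (-0.77, limma adjusted p = 0.0522) and SURF4 (-0.79, limma adjusted p = 0.0841) did not. When _x_at and _s_at probe sets, which can bind several transcripts, were left out, GOLGB1 was read from its second probe set and did not pass (-0.61, limma adjusted p = 0.22), and with the mean of its probe sets GOLIM4 was at -0.52 (limma adjusted p = 0.212).

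Over the 26 other settings, the median of the cytosolic genes relative to all genes lay between -0.05 and 0.05. That of the cargo receptors, Golgi proteins and SNAREs together lay between -0.285 and -0.18, and that of the cargo receptors alone between -0.39 and -0.26, while the SNAREs of that side had a median of 0.25 in the reported fit. No cytosolic gene was called in any of these settings, which include the 3 that called no gene at all. Only 1.51% of all genes were called lower and 0.224% higher in the reported fit, so 0 of 22 is close to the general share. At most 4 cytosolic genes had an unadjusted p under 0.05, in the fit without large array 1 and small array 3. In that fit 3186 of 14726 genes did.

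**Figure D5:**
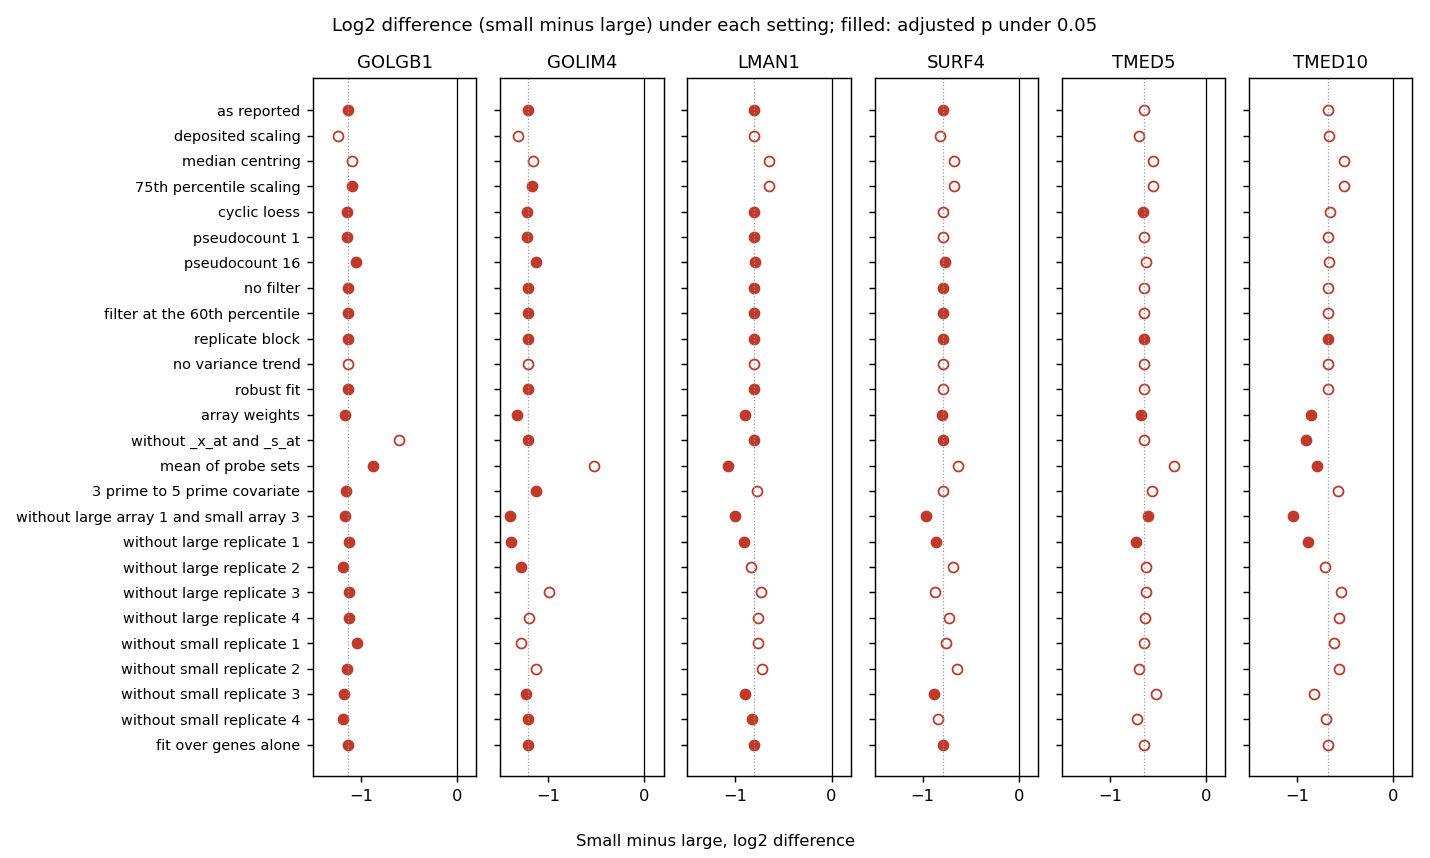
Log2 difference (small minus large, horizontal axis) of 6 members under each setting (vertical axis); filled points had an adjusted p under 0.05. All points of GOLGB1, GOLIM4, LMAN1, SURF4, TMED5 and TMED10 lie below 0, from -1.40 to -0.33. Fewer points are filled in most fits with 1 array left out, but all 6 are filled without large array 1.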

How the data were processed

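RNA of sorted H1 cells was amplified, biotin-labelled and hybridised per the labels' protocols, and scans were imported into Rosetta Resolver (version 7.1) per the series design text. The deposited values are intensities on a linear scale, 1 per probe set and array. Their background correction and the program that wrote them are not given in the sources used here. Groups come from the sample titles, and the 4 sorts of a class were biological repeats per the labels.

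Intensities were taken to log2 with a pseudocount of 1.814, set at the 10th percentile, which understates fold changes of dim genes, and quantile normalized. After removal of 62 control probe sets, 32768 probe sets with a mean above the 40th percentile (3.623) were tested in 1 fit with limma 3.58.1 in R 4.3.3 (lmFit, eBayes with a variance trend, two-sided). Benjamini-Hochberg adjustment ran over 14726 genes, each read from its brightest tested probe set, and again over probe sets, with a threshold of 0.05. Printed errors of differences are moderated standard errors, and intervals are 95%. The number of arrays limits precision: the median standard error over genes was 0.24. Fits were checked on simulated data with independent noise, which does not test the scaling or differences in quality between arrays. Array measures were compared by exact permutation over 70 assignments (smallest two-sided p 0.0286).

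Of the probe sets, 41091 had 1 gene symbol in GEO's platform annotation, 1801 several and 11721 none; symbols were updated by gene ID from RefSeq's table for 41037 of the former. Promoters are RefSeq's, on GRCh38.p14, and were matched by symbol for 43 of 50 members; SEC24D, ARF4, ERGIC1, TMED4, TMED9, KDELR2 and USO1 were not matched. Full values are given for each called member, for the 2 uncalled members with the smallest p in each class, for members with a called probe set and probe sets of opposite sign, and for called genes of the wider list. Members, lists, classes and settings were chosen with earlier results of these data known. The alternatives were other scalings, pseudocounts, filters, fits and probe set rules, a replicate block, a 3 prime to 5 prime covariate and leaving out arrays.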

Additional observations from a re-analysis of the deposited data

Results flagged for a closer look

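In 8 of 94 groups of 4 arrays, 1 array lay farther from the others than Dixon's 95% limit allows, and chance marks about 1 in 20 groups. Among the coat genes these were COPB2 in large array 1 (log2 intensity 8.92, the others 8.55 to 8.60), ARCN1 in small array 3 (9.46, the others 9.17 to 9.19) and SEC24B in large array 4 (8.55, the others 8.22 to 8.27). Among the cargo receptors they were MCFD2 in small array 4 (8.61, the others 8.77 to 8.79), ERGIC3 in large array 2 (9.32, the others 8.43 to 8.58), TMED4 in large array 2 (6.23, the others 6.99 to 7.09) and TMED5 in large array 1 (9.0, the others 9.28 to 9.32). The 3 prime minus 5 prime difference of large array 1 was 2.91, against 1.83 to 1.89 in the other large arrays. None of the 4 members that passed the test was among them.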

How the results depend on the processing

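Of 26 other settings, members called lower (4 as reported, all of them cargo receptors or Golgi proteins) numbered 0 under 3 of them (values scaled as deposited, median centring, no variance trend), 2 with 75th percentile scaling and with the 3 prime to 5 prime covariate, 7 without large array 1 and small array 3, and 1 to 6 when 1 array was left out. Genes of the wider transport list called lower (2) numbered 0 in the first 3 of these and with the covariate, 1 with 75th percentile scaling and without _x_at and _s_at probe sets, and 0 to 3 when 1 array was left out; 1 was called higher without large array 1 and small array 3. The members' median difference (-0.03) was -0.11 on the deposited scaling, 0.038 with median centring, 0.036 with 75th percentile scaling and 0.029 with the mean of probe sets. ARF4 turned to 0.0155, 0.165, 0.163 and 0.0816 under those 4 settings and 0.0468 with the covariate, and ranged from -0.13 to 0.0493 when 1 array was left out. GBF1 turned to -0.10 on the deposited scaling and -0.0701 with the covariate, and ranged from -0.13 to 0.28; GOSR1 turned to -0.0612 without _x_at and _s_at probe sets. Except for the sign of GOSR1, which comes from reading another probe set, the cause was not tested. Over all genes 222 were called lower and 33 higher, against 0 and 0 in the 3 settings with none, 140 and 55 with 75th percentile scaling, 115 and 19 with the covariate, 444 and 206 with array weights, 435 and 300 without large array 1 and small array 3, and 405 and 145 at a threshold of 0.1. Leaving out 1 array gave 59 to 316 lower and 2 to 171 higher. The labels do not say whether equal replicate numbers mark paired sorts. Deviations of equally numbered arrays correlated at 0.097, 0.102, 0.206 and 0.018, against -0.154 to 0.093 for other numbers, and 6 of 8 arrays correlated best with their own number, which is a hint from the data only. With the replicate number as a block 6 members were called lower (TMED5 and TMED10 added), and 481 genes lower and 205 higher. A fit over genes alone, chosen after the data were seen, gave 249 and 44 and the same 4 members. The median of all genes was 0.05 as reported, -0.05 on the deposited scaling and 0.10 with median centring. Dim probe sets had wide errors, and 4 arrays a class limit what can be called.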

Other observations

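Paralogs and partners were set against each other within arrays, as log2 ratios; the pairs were chosen after their values were seen and were not tested. SEC24C to SEC24D shifted by -0.54 between small and large cells, SEC23A to SEC23B by -0.51 and KDELR1 to KDELR3 by -0.51, with overlap between the arrays in each case. GOLGB1 to GOLGA2, the tethering golgins of the Golgi rim and cis face, shifted by -1.41, and the highest small array (0.80) lay below the lowest large array (0.98). Among dim probe sets outside the tests, 1 of MCFD2 had a log2 intensity of 1.90 ± 0.45 in large and 3.75 ± 0.71 in small arrays, and 1 of TMED10 had 3.25 ± 0.71 in large and 1.86 ± 0.57 in small arrays (SD, n = 4).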
